A study of Homo sapiens with 8 samples.

Results

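The metallothionein genes measured here were MT1A, MT1B, MT1E, MT1F, MT1G, MT1H, MT1L, MT1M, MT1X and MT2A. They were taken as every probe of the array that is not a control and whose gene name in the files is one of these 10 symbols, which gave 10 of the 36337 gene names on the array and 13 of its 50599 probes. MT1E, MT1H and MT1X have a second probe each, and the other genes have a single one. The question was how this family responded in colorectal cancer cells when UHRF1, the protein that brings the maintenance DNA methyltransferase to newly replicated DNA, was depleted, when histone deacetylases were inhibited, and when both were done.

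All RNA came from DLD1 cells, an established line from a human colorectal adenocarcinoma, with the CpG island methylator phenotype according to the study. Every culture was transfected with siRNA, either a control siRNA (siCONT) or one of 2 siRNAs against UHRF1 (siUHRF1-1 or siUHRF1-2), and after 48 h received 300 nM trichostatin A (TSA), a histone deacetylase inhibitor, or its solvent ethanol (mock) for 24 h. The labels thus give 4 groups of 2 arrays, siCONT or UHRF1-depleted cells, each under mock or TSA, and the depleted cells under TSA are called the combination. Both depleted groups hold 1 array for each UHRF1 siRNA, and a single cell line was used. In bulk RNA, a change in the number of cells making a transcript and a change in transcript per cell cannot be told apart.

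Metallothioneins are small, cysteine-rich proteins that bind zinc and copper and can take up cadmium and other heavy metals. They buffer free zinc, and their genes are switched on by metals through the zinc-sensing transcription factor MTF1, which binds metal response elements in their promoters, and also by glucocorticoids and oxidative stress. In humans the MT1 and MT2 genes lie side by side on chromosome 16 and arose by repeated duplication, so their transcripts are very alike. MT2A and several MT1 genes are made in many tissues, the colon epithelium among them. MT1L is listed as a pseudogene in the RefSeq gene table.

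The likeness of the transcripts sets what each probe can tell apart, so the probes are shown first, as read from the array files. All 13 lie on chromosome 16 (hg19). The MT1A probe (chr16:56673205-56673808) and the first MT1H probe (chr16:56704448-56704833) cover 604 and 386 bases of genome with 60 bases of sequence, so both cross an exon junction. The first MT1X probe (chr16:56717082-56717141) covers 60 unbroken bases. All 3 lie in the coding part, which is rich in cysteine codons, and capitals mark runs of at least 13 bases found letter for letter in another of the 3.
MT1A: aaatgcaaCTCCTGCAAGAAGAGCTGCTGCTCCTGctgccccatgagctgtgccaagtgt
MT1H: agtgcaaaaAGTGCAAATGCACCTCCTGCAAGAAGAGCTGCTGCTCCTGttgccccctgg
MT1X: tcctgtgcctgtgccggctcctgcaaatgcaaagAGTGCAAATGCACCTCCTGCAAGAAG
The MT1A and MT1H probes share a run of 27 bases and the MT1H and MT1X probes one of 26. The files list the MT1A probe also for a transcript of MT1M, the first MT1X probe also for one of MT1B, and the second MT1E probe also for MT1M and MT1JP.

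The probes of MT1L, MT1E (first probe) and MT1B run across the end of the coding part. Stretches of 30 bases are shown, with the bases that all 3 have in capitals.
MT1L: CTGCTGTGCCTGATGTgGGgAcAGacCTgC
MT1E: CTGCTGTGCCTGATGTgGGaAcAGctCTtC
MT1B: CTGCTGTGCCTGATGTtGGgAgAGccCTgC
Of these 30 bases, 24 were the same in all 3. The last 30 bases of the MT1F probe and of the second probes of MT1X and MT1E, which lie nearer to the ends of the transcripts, shared 15 bases, shown in capitals.
MT1F: cagagagAcatgtacaAACCTGGATTTTTT
MT1X: tagagcaAcctatataAACCTGGATTTTTT
MT1E: atagaacAacctgcacAACCTGGATTTTTT
The MT1G probe (chr16:56700693-56700752) begins with a stretch of 22 bases much like the one that ends the second MT1H probe (chr16:56704902-56704961). The 20 bases in capitals are the same in both.
MT1G: CcCGTAAAATCtAGGATTTTTT
MT1H: CaCGTAAAATCcAGGATTTTTT
Over the best ungapped overlap of at least 40 bases, the probes of MT1A and MT1H (first probe) were identical at 91.3% of 46 bases, those of MT1E (first probe) and MT1L at 90.5% of 42, and those of MT1F and MT1X (second probe) at 81.7% of 60. The MT1M and MT2A probes reached no more than 53.7% with each other, over 54 bases. Binding of one family member's transcript to another member's probe was not tested, so each value below is that of a probe, and signal from several genes cannot be told apart where they share sequence.

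Promoters are shown for the members that the RefSeq promoter table holds, because the family is known for its metal response elements. The table (GRCh38.p14) held 4 of the 10, all on the plus strand, namely MT2A, MT1B, MT1H and MT1X. It did not hold MT1A, MT1E, MT1F, MT1G, MT1L and MT1M. The 250 bases before the start of each gene follow, with the 7-base core of the metal response element, TGCACNC or TGCGCNC on either strand, in capitals.
MT2A, chr16:56608334-56608583: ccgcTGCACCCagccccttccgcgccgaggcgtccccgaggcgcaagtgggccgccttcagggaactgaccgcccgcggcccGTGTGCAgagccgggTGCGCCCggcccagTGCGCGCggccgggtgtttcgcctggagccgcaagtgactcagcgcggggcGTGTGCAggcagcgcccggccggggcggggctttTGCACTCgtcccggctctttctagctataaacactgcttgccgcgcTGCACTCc
MT1B, chr16:56651636-56651885: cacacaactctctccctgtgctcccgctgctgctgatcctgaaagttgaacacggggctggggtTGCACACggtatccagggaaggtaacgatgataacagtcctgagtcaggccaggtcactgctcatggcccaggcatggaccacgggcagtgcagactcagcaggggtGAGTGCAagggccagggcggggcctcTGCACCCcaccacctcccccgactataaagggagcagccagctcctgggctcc
MT1H, chr16:56669564-56669813: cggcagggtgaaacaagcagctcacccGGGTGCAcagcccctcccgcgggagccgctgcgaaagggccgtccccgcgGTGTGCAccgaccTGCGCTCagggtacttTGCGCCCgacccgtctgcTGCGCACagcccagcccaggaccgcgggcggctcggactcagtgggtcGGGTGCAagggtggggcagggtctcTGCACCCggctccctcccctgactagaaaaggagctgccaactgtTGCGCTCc
MT1X, chr16:56682220-56682469: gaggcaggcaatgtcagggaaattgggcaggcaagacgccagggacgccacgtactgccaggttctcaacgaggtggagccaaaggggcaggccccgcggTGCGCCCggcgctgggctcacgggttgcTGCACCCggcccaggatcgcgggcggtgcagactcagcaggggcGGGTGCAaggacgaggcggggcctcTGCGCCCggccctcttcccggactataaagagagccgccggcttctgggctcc
MT2A held 7 matches and MT1H 8, while MT1X held 4 and MT1B 3, and no matches overlapped. Of the 35116 promoters of the same length in the table, 24.8% held at least 1 match and 0.37% held at least 4. A CG pair occurred 32 times in the MT2A stretch, 22 times in those of MT1H and MT1X and 7 times in that of MT1B, against a median of 11 over all promoters. The letters TATAAA, searched on the strand of the gene, stood in the stretches of MT2A, MT1B and MT1X, and in 6.8% of all promoters. A match of letters is a description and not a binding site.

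A level is the log2 of a probe's background-subtracted intensity, set so that the 75th percentile of each array is 0, and a difference of 1 is 2-fold. Levels of different probes are not compared. The share of probes well above background ran from 43.3% to 48.0% over the arrays. Arrays of a siCONT group differed little more than the noise of averaging a probe's spots would give. Over 457 probes with repeated spots the difference was 1.27 times that noise under mock and 1.09 times under TSA. The siCONT means therefore carry no SD, while the depleted groups have n = 2 siRNAs. The SE, adjusted p and calls come from a fit over all 8 arrays, in which each siCONT array is a replicate, and a second fit with the siCONT arrays of an agent averaged to 1 sample is given beside the calls. Neither the labels nor the methods say whether the arrays came from separate cultures, and p-values measure only the spread between these arrays. All mock arrays lay in 1 row of the slide and all TSA arrays in the other, so TSA and slide row cannot be told apart. In both rows siCONT lay in columns 1 and 2, siUHRF1-1 in column 3 and siUHRF1-2 in column 4. The siRNA and the slide column therefore cannot be told apart either. The brighter UHRF1 probe had levels of 1.98 and 2.01 in siCONT with mock, 0.34 and -0.02 with siUHRF1-1 and siUHRF1-2 under mock, 1.04 and 1.01 in siCONT with TSA, and -1.55 and -2.14 with both under TSA. It was thus lower on each depleted array than on any siCONT array. By this probe UHRF1 changed by -1.83 with depletion under mock, -2.87 with depletion under TSA and -0.97 with TSA in siCONT. The dimmer probe gave -1.71, at least 3.67-fold lower, and -1.13 in that order. The part of this unequal UHRF1 loss in the comparisons between agents was not tested. All 10 markers of colon epithelium were well above background on all arrays, against 0 of 5 for fibroblasts, 1 of 5 for leukocytes and 0 of 3 for endothelium. The mean summed intensity of these lists in siCONT with mock, depleted cells with mock, siCONT with TSA and the combination was 16.8, 17.9, 62.7 and 150.5 for fibroblasts, 58.1, 80.6, 100.8 and 158.5 for leukocytes, and 22.5, 76.7, 160.7 and 258.0 for endothelium, against 267600, 253900, 323500 and 295600 for epithelium. Their part in the results was not tested.

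**Figure D1:**
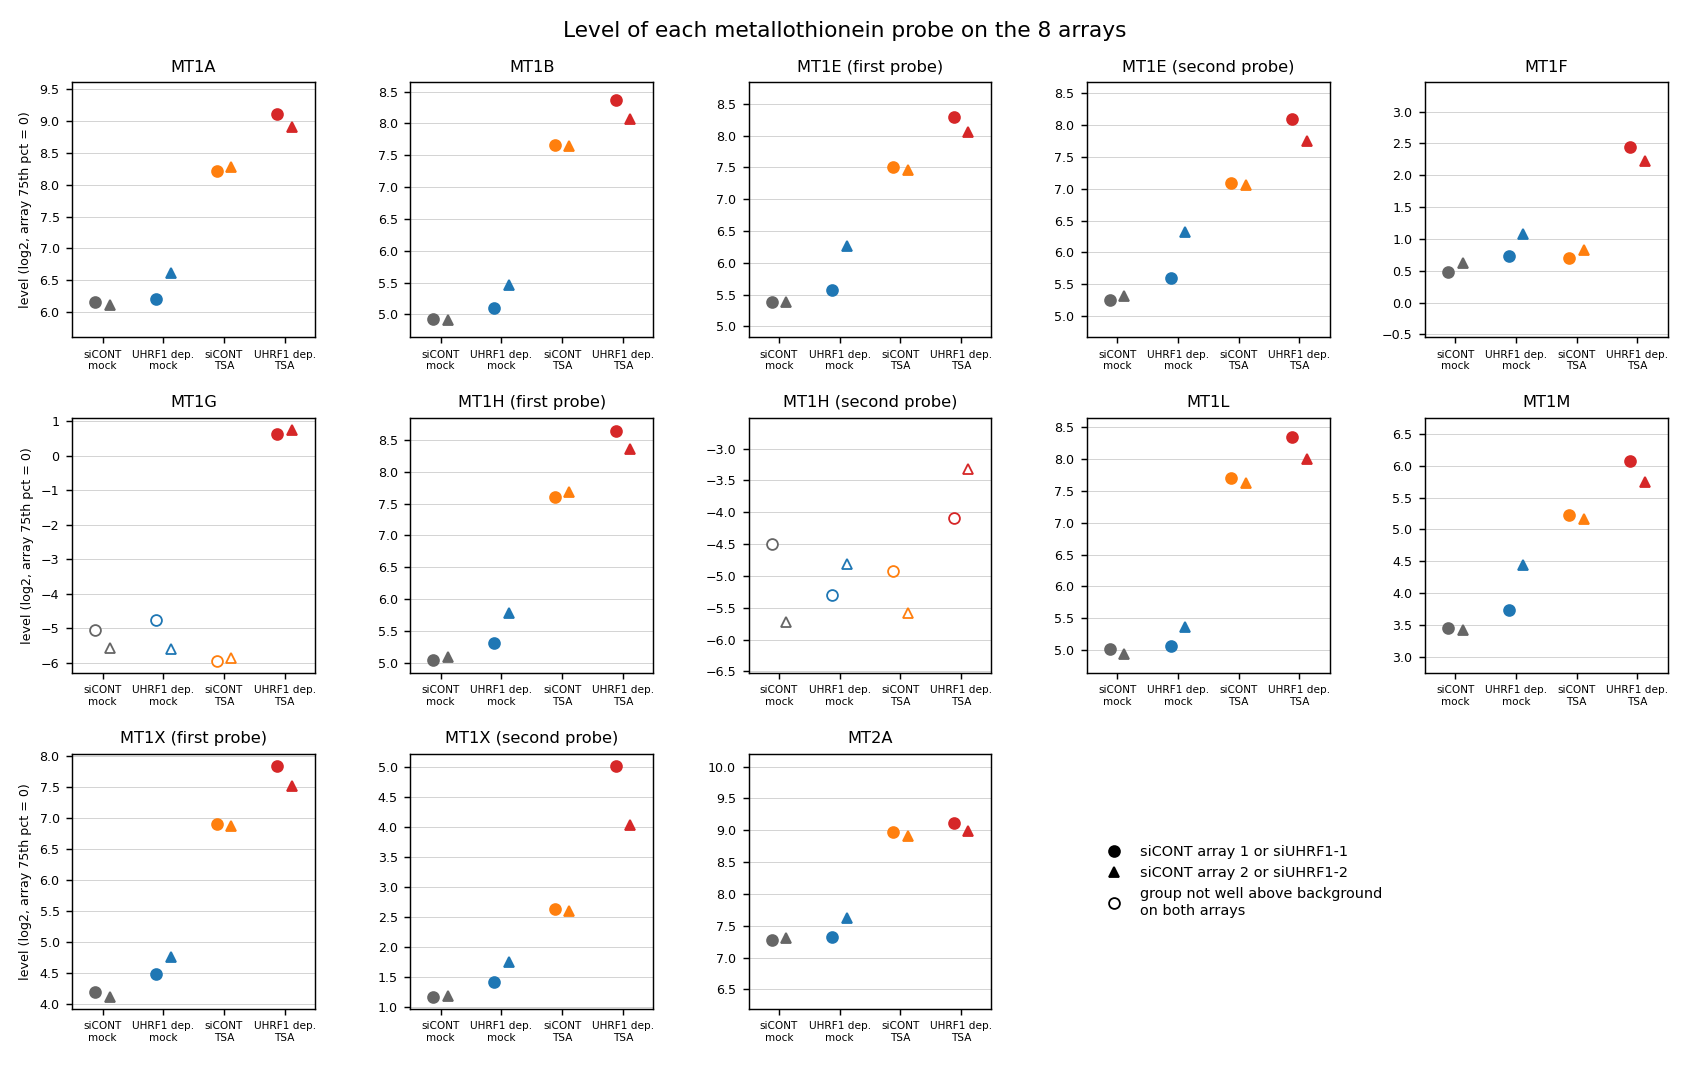
Level of each of the 13 metallothionein probes (log2 of intensity, with the 75th percentile of each array at 0) on the 8 arrays. Every point is 1 array, circles are siCONT array 1 or siUHRF1-1, triangles are siCONT array 2 or siUHRF1-2, and open symbols mark groups in which the probe was not well above background on both arrays. The TSA points lie above the mock points in 10 panels. In that of MT1F only the depleted cells with TSA stand apart, MT1G is filled only there, and the second MT1H probe is open throughout.

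The basal state separated MT1G from the other 9 genes. In siCONT cells with mock, 11 probes of 9 genes were well above background on both arrays, as they were on all 8. MT2A, a member made in most human tissues, had levels of 7.28 and 7.31. The MT1G probe, with -5.05 and -5.56, was not well above background, nor was the second MT1H probe, with -4.50 and -5.72. For 9 genes the comparisons thus start from a measured probe signal, which for MT1H is that of the coding probe alike to the one of MT1A, and for MT1G from a bound.

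No member was called changed by UHRF1 depletion alone. With mock, all 9 tested members had higher means in depleted than in siCONT cells, but the differences were between 0.18 and 0.66 on the log2 scale, with a median of 0.36 against -0.10 over all probes tested. By limma with Benjamini-Hochberg adjustment, 0 of 9 were called changed (adjusted p under 0.05 and at least 2-fold), with 3 at an unadjusted p under 0.05. Of all probes tested, 3.13% were called higher and 0.987% lower. With the siCONT arrays averaged to 1 sample the members called were also 0, with 0 at an unadjusted p under 0.05, against 0.0223% of all probes called higher.

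The individual values show where the small differences lay. The MT1M probe was at 3.44 and 3.42 in siCONT, and at 3.74 with siUHRF1-1 and 4.44 with siUHRF1-2, a change of 0.66 (SE 0.24, adjusted p = 0.133). The MT1E probe was at 5.38 and 5.39 in siCONT and at 5.58 and 6.27 with the UHRF1 siRNAs, a change of 0.54 (SE 0.23, adjusted p = 0.177). Both siRNAs stood above both siCONT arrays for these genes, with siUHRF1-2 the higher at this scaling. MT2A had 7.33 and 7.62 with the siRNAs, and its siUHRF1-1 value lay 0.04 above the siCONT mean. MT1G was not well above background, at -4.76 and -5.59.

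With TSA alone most of the family was higher. In siCONT cells, 8 of the 9 tested members rose, and 3 of 9 (MT1B, MT1L and MT1X) were called with the siCONT arrays averaged, where 1.26% of all probes were called higher and 8 of 9 members had an unadjusted p under 0.05. The median change was 2.12, against -0.11 over all probes tested, of which 10.4% were called higher and 8.21% lower. MT1X (first probe) was at 4.19 and 4.12 with mock and at 6.91 and 6.87 with TSA, a 6.65-fold rise (log2 2.73, SE 0.16, adjusted p = 0.000335). MT1B rose from 4.93 and 4.92 to 7.66 and 7.64, which is 6.62-fold. MT1L rose from 5.01 and 4.94 to 7.70 and 7.62, which is 6.45-fold. The groups lay far apart in these 3 genes, with the arrays of a siCONT group close together.

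The other genes that rose with TSA did so by less. MT1H (first probe) rose from 5.03 and 5.09 to 7.60 and 7.68, which is 5.98-fold, and MT1A from 6.15 and 6.11 to 8.22 and 8.28, which is 4.34-fold. MT1E (first probe) rose to 7.51 and 7.46, which is 4.29-fold, and MT1M to 5.23 and 5.16, which is 3.39-fold. MT2A rose to 8.97 and 8.90, a 3.13-fold rise (log2 1.64, SE 0.14, adjusted p = 0.000777). In all of these the TSA arrays lay above the mock arrays without overlap.

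MT1F and MT1G stood apart under TSA alone. MT1F was at 0.48 and 0.62 with mock and at 0.69 and 0.83 with TSA, a change of 0.21 (SE 0.16, adjusted p = 0.334). MT1G was not well above background with either agent, at -5.95 and -5.85 with TSA.

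**Figure D2:**
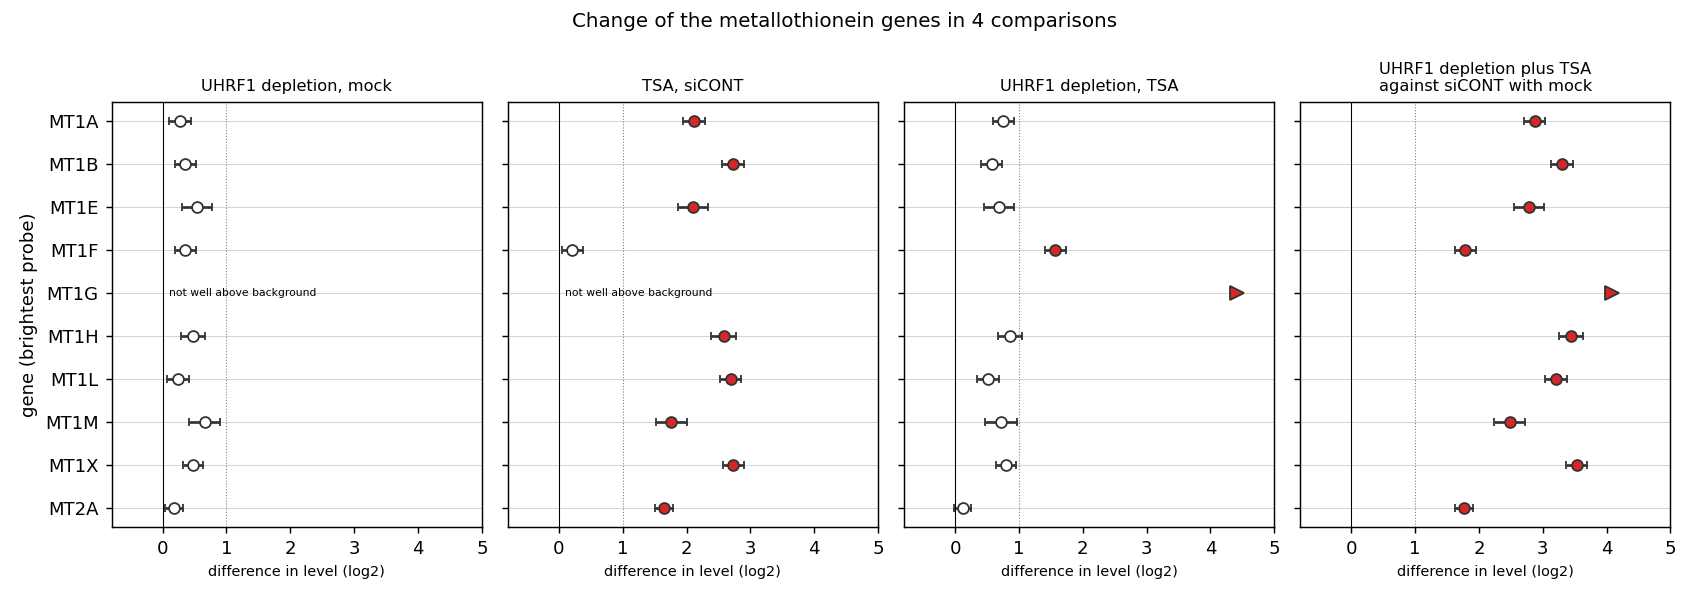
Difference in level (log2, x axis) of each metallothionein gene, by its brightest probe, in 4 comparisons. Points are limma estimates with standard errors, triangles are lower bounds where the control group was not well above background, filled symbols were called, and the dotted line marks a 2-fold difference. No gene is filled for UHRF1 depletion under mock, 8 are for TSA in siCONT, MT1F and the bound of MT1G are for UHRF1 depletion under TSA, and 9 genes and the bound of MT1G are for the combination.

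The combination gave the highest levels of the family. Against siCONT with mock, the 9 members measured in both groups were all called higher, by 1.76 to 3.53 on the log2 scale, and MT1G, which could enter the test only through the combination, was at least 16.9-fold higher. Of all probes tested, 14.5% were called higher and 11.1% lower. The same members were called with the siCONT arrays averaged, where 9.74% of all probes were called higher. In depleted cells TSA against mock likewise raised all 9 (1.43 to 3.06) and MT1G by at least 19.5-fold, against 11.7% of all probes higher and 9.01% lower. Averaging the siCONT arrays left these 9 called there, against 10.0% of all probes called higher.

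MT1X (first probe) reached 7.85 with siUHRF1-1 and 7.53 with siUHRF1-2 in the combination, 11.6-fold over siCONT with mock (adjusted p = 9.39e-05). MT1H (first probe) reached 8.65 and 8.35, which is 10.8-fold, MT1B 8.37 and 8.08, which is 9.86-fold, and MT1L a mean of 8.17 ± 0.25 (SD, n = 2), which is 9.20-fold. MT1A reached 9.11 and 8.90, MT1E 8.29 and 8.06, and MT1M 6.08 and 5.75. In each of these genes both depleted arrays with TSA lay above both siCONT arrays with TSA. MT2A reached 9.12 and 8.99, which is 3.40-fold over siCONT with mock. At this scaling these values lay just above the 8.97 and 8.90 of siCONT with TSA. In unscaled intensity the MT2A arrays of the groups overlapped, at 83390 and 83070 in the combination and 84090 and 80930 in siCONT with TSA.

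Under TSA, UHRF1 depletion raised MT1F, and MT1G was measured in depleted cells alone. Depleted against siCONT cells, both with TSA, gave differences of 0.12 to 0.86 for 8 genes by their brightest probes. By these probes 0 of the 8 reached 2-fold, although MT1A (0.76, adjusted p = 0.0316), MT1H (0.86, adjusted p = 0.0318) and MT1X by its first probe (0.80, adjusted p = 0.0241) had an adjusted p under 0.05. Averaging the siCONT arrays gave 0.373, 0.353 and 0.345 for these adjusted p. Counted by the brightest probe, MT1F was the 1 call among the 9 members measured in both groups, against 5.39% of all probes called higher and 2.87% lower. The second MT1X probe was called too, with a rise of 1.91 (adjusted p = 0.0148, and 0.191 with the siCONT arrays averaged). MT1F was at 0.69 and 0.83 in siCONT and at 2.44 and 2.23 in depleted cells, a 2.97-fold rise (log2 1.57, SE 0.16, adjusted p = 0.00511). MT1G was at 0.62 and 0.75 in depleted cells and at least 21.4-fold higher than in siCONT, where it was not well above background. It passed the filter on dim probes only through the depleted cells, so that filter set the direction of its change in advance and its call is not counted. Averaging the siCONT arrays left 0 of the 9 called by limma, with an adjusted p of 0.118 for MT1F and 4 of 10 members, MT1G among them, at an unadjusted p under 0.05, against 0.675% of all probes called higher.

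The interaction, meaning the change with UHRF1 depletion in TSA-treated cells less the one in mock-treated cells, tests whether the effect differed between the agents. Of the 9 members measured in all groups it was called for MT1F (1.22, SE 0.23, adjusted p = 0.0421), which lost its call without any one siCONT array or siUHRF1-1 with TSA. Of all probes, 2.83% were called higher and 2.07% lower. By their brightest probes the other 8 members had values between -0.06 and 0.48, with adjusted p of 0.236 or more. Values of 5 of them (MT1B, MT1E, MT1L, MT1M and MT1X) turned negative when arrays were scaled to their median. The second MT1X probe had a larger value, 1.51 (SE 0.45, adjusted p = 0.0966), which was not called. MT1G has no usable interaction, since its probe was dim in 3 of the groups. With the siCONT arrays averaged 0 members were called (adjusted p = 0.523 for MT1F), with 2 of 10 at an unadjusted p under 0.05, and 0.0% of all probes were called higher. With a replicate block within each siRNA arm, which pairs mock and TSA by siRNA in the depleted cells, 0 were called as well.

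Second probes of the same gene gave partly different values. The MT1E probes rose alike, by 2.79 and 2.64 in the combination against siCONT with mock. The second MT1X probe was at 1.17 and 1.20 in siCONT with mock, 1.42 and 1.76 in depleted cells with mock, 2.64 and 2.61 in siCONT with TSA, and 5.03 and 4.04 in depleted cells with TSA. It rose with TSA alone by 1.44 (SE 0.32), where the first probe rose by 2.73, and with UHRF1 depletion under TSA by 1.91 (SE 0.32, adjusted p = 0.0148), where the first differed by 0.80 and did not reach 2-fold. Averaging the siCONT arrays gave the second probe adjusted p of 0.229 and 0.191 for these. The interaction was 1.51 by the second probe (adjusted p = 0.0966, and 0.606 averaged) and 0.32 by the first. Neither was called, although the second probe was in 2 of the alternatives. Both ended near the same combined rise, 3.35 and 3.53. The second MT1H probe was above background on a single array, siUHRF1-2 with TSA, at -3.33, whereas the first MT1H probe was well above background on all 8. Differences between probes of a gene were not tested.

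How far the UHRF1 siRNAs differed under mock depended on how arrays were scaled. With the 75th percentile at 0 under mock, siUHRF1-2 gave the higher level in 11 of 11 probes above background on all arrays, by 0.27 to 0.72, and under TSA siUHRF1-1 did in 11 of 11, by 0.13 to 0.99. The 75th percentile itself was higher by 0.34 (log2) on the siUHRF1-1 array than on the siUHRF1-2 array under mock. Under mock siUHRF1-2 was also higher in 11 of 11 with the percentile taken over probes well above background (median 0.40) and with quantile normalization (0.36). The same held with normexp correction (0.27) and the series matrix (0.35). With median scaling siUHRF1-2 was higher under mock in 10 of 11 probes, by a median of 0.07 in place of 0.35, and in unscaled intensity in 8 of 11, by a median of 0.02. Under TSA siUHRF1-1 was higher in 11 of 11 with median scaling and in unscaled intensity, by medians of 0.26 and 0.17. The siCONT arrays of the same probes differed by at most 0.14. TSA minus mock was 1.71 to 3.61 over these probes with siUHRF1-1 and 1.15 to 2.76 with siUHRF1-2. Each siRNA has 1 array per agent, so these differences have no test, and the 11 probes share arrays and sequence and are not independent.

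**Figure D3:**
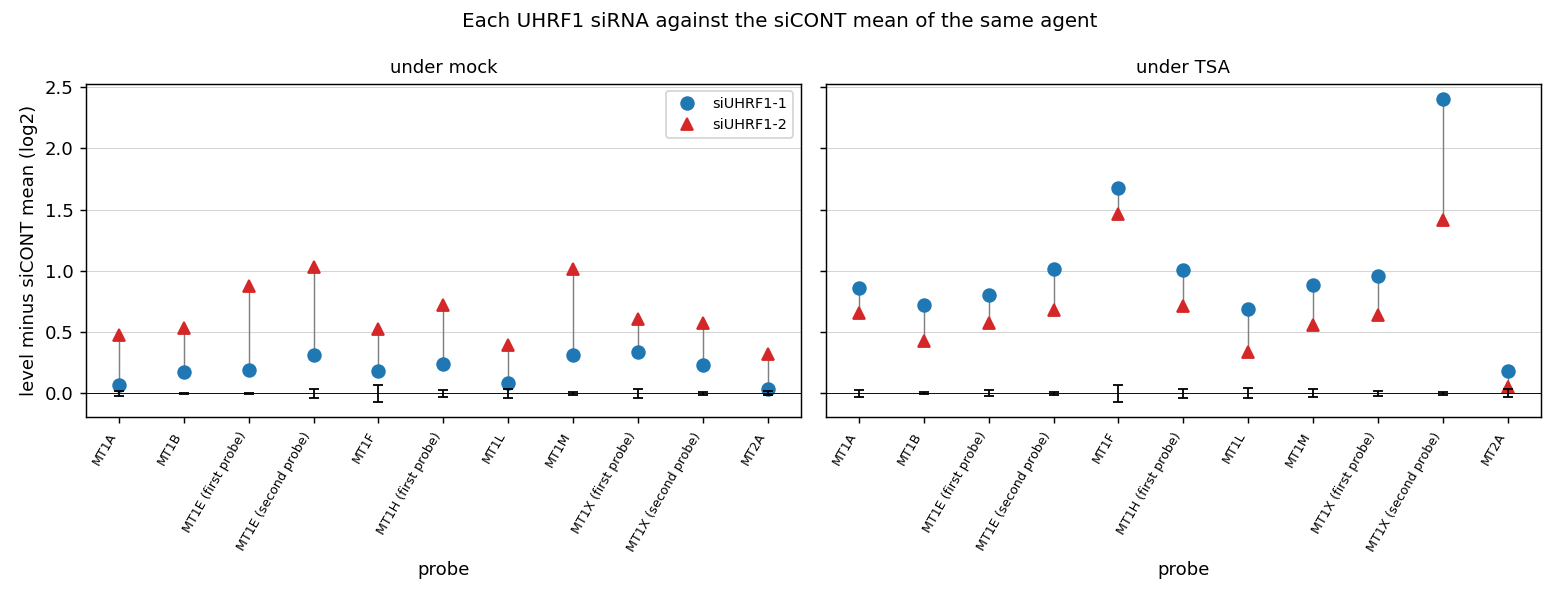
Level minus the siCONT mean of the same agent (log2, y axis) for siUHRF1-1 (circles) and siUHRF1-2 (triangles), for the 11 metallothionein probes above background on all arrays; bars at 0 span the siCONT arrays. With this scaling, triangles lie above circles in all 11 probes under mock and below them in all 11 under TSA.

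The genes beside the cluster were few, and their counts are descriptions. Of 18 neighbouring genes of chromosome 16 on the array, 12 were tested in the combination against siCONT with mock. Of these, 0 were called higher (14.5% of all probes) and 1 lower (11.1% of all probes). The 1 was NUP93, a nuclear pore protein (-1.16, adjusted p = 0.0168, and 0.127 with the siCONT arrays averaged). The median change of the 12 was -0.21, against -0.14 over all probes tested. NUP93 is the next neighbour after MT1X, which was higher by 3.53. On the other side, beyond MT4 and MT3, BBS2, a cilium gene, differed by -0.14 (SE 0.11, adjusted p = 0.356). TSA alone called 0 of 12 neighbours, against 10.4% of all probes higher and 8.21% lower. UHRF1 depletion under mock called 2 of 13 higher, against 3.13% of all probes. They were CPNE2 (1.15) and PLLP (1.63), both on the NUP93 side and neither called with the siCONT arrays averaged.

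Of the other metallothionein genes and relatives, 5 were on the array and 2 could be tested. MT3, a member known from brain, was at 2.04 and 1.88 in siCONT with mock, 1.92 and 1.93 in depleted cells with mock, 2.46 and 2.37 in siCONT with TSA, and 4.64 and 4.31 in depleted cells with TSA. The combination stood apart, by 2.51 over siCONT with mock (adjusted p = 0.000161) and by 2.06 over siCONT with TSA (adjusted p = 0.00196, and 0.0661 with the siCONT arrays averaged), with an interaction of 2.10 (adjusted p = 0.0133, and 0.308 averaged). MT1DP and MT1IP were on no array well above background, and MT4 was on 1. TESMIN, a testis protein with a metallothionein-like cysteine-rich part, fell with TSA in siCONT (-1.18, adjusted p = 0.0163, and 0.25 averaged) and in depleted cells (-1.90, adjusted p = 0.00285).

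**Figure D4:**
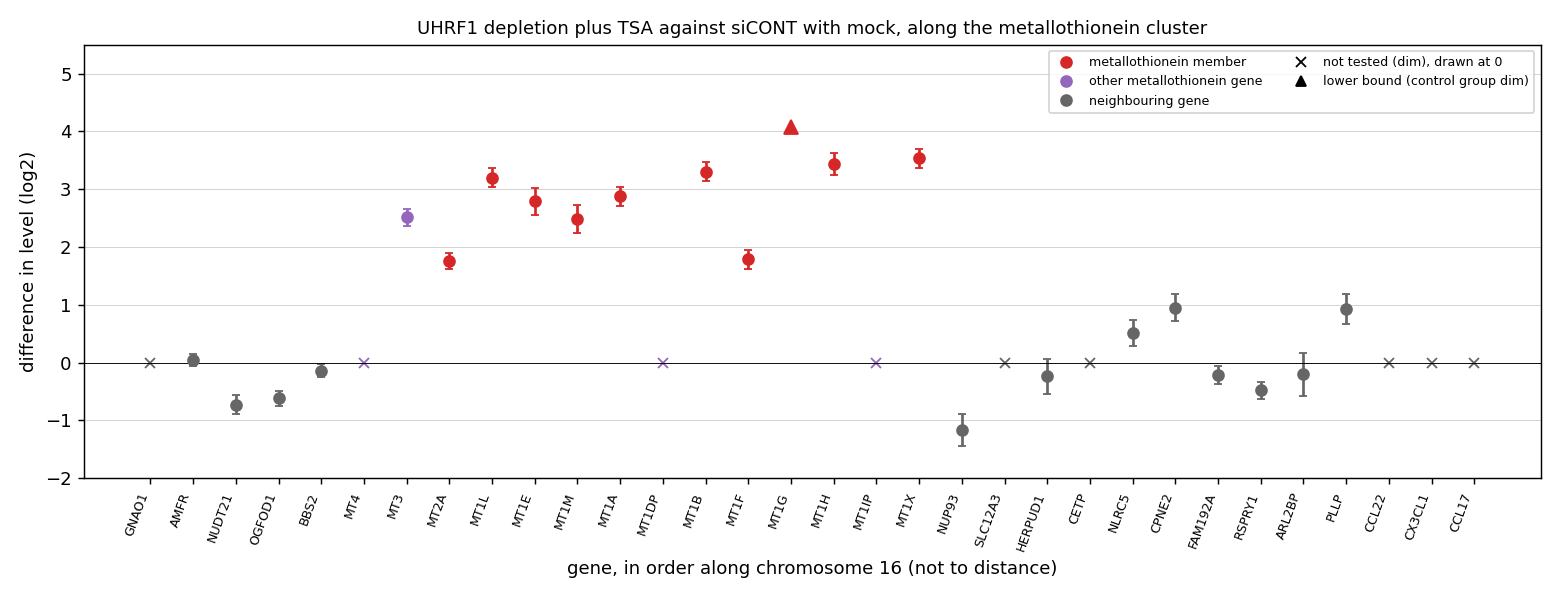
Difference in level between UHRF1 depletion plus TSA and siCONT with mock (log2, y axis) for genes in their order along chromosome 16 (x axis, not to distance), by the brightest probe with its standard error. A triangle is a lower bound and a cross marks a gene too dim to test, drawn at 0. The members lie between 1.76 and 3.53, apart from MT1G at its bound, and the tested neighbours between -1.16 and 0.95.

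Genes that act with the metallothioneins did not move as 1 group. In the lists that follow, the shares to read a count against are 10.4% of all probes called higher and 8.21% lower for TSA in siCONT, and 14.5% and 11.1% for the combination. A gene given there as at least N-fold was dim in the control group and passed the filter only through the other group. That filter set the direction of its change in advance, so its call is not read as a result, although the counts include it. Of the transcription factors known at metallothionein promoters, 4 of 6 were tested and 0 were called in any comparison. MTF1 was at 1.07 and 1.09 in siCONT with mock and at 1.18 and 0.66 in depleted cells with TSA (difference -0.17, SE 0.19, adjusted p = 0.494). SP1 (-0.97) and USF2 (-0.93) were lower in the combination by less than 2-fold, with adjusted p of 0.00827 and 0.00108. The glucocorticoid receptor NR3C1 and NFE2L2, the factor of the oxidative stress response, were not well above background by their probes.

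Of the zinc exporters, 2 of 7 tested rose with TSA in siCONT, SLC30A1 (1.34, adjusted p = 0.00159), which moves zinc out of the cell and is itself a target of MTF1, and SLC30A3 (1.51, adjusted p = 0.0111). SLC30A1 was at 0.91 and 1.03 with mock and at 2.30 and 2.31 with TSA. In depleted cells with TSA it was at 1.79 and 2.12, below both siCONT arrays with TSA. Of 13 tested zinc importers, SLC39A12 was called higher, at least 1.87-fold, and SLC39A11 lower (-1.48). In the combination 1 of 8 exporters (SLC30A3, 1.37) and 1 of 13 importers (SLC39A12, at least 2.18-fold) were called higher and 0 lower. SLC30A1 differed by 0.99 there (adjusted p = 0.0026), just under 2-fold. With the siCONT arrays averaged, 0 of these transporters were called for TSA in siCONT (adjusted p = 0.117 for SLC30A1). In the combination SLC39A12 was, but it was dim in siCONT with mock and entered that test only through the combination. For TSA in depleted cells 2 of 8 exporters were called higher, against 11.7% of all probes. They were SLC30A1 (1.41, adjusted p = 0.001, and 0.0169 averaged) and SLC30A3 (2.01, adjusted p = 0.00378, and 0.0227 averaged). Of 13 importers, 1 was called higher and 1 lower there.

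Copper handling genes gave 1 of 14 higher with TSA in siCONT, STEAP4, a metalloreductase (at least 5.24-fold), and 2 of 14 in the combination, STEAP4 (at least 3.52-fold) and ATOX1, a copper chaperone (1.17, adjusted p = 0.000652), which is about the share of all probes. ATP7A, a copper-exporting pump, had an interaction of 1.08 (adjusted p = 0.0453, and 0.542 averaged). Among the heat shock and heavy metal stress genes, HMOX1, the haem-degrading enzyme that metals and oxidative stress induce, was at 2.90 and 2.92 in siCONT with mock, 3.15 and 3.77 in depleted cells with mock, 3.28 and 3.28 in siCONT with TSA, and 6.69 and 5.86 in depleted cells with TSA. It rose in the combination by 3.36 (SE 0.31, adjusted p = 0.000581) and differed by 0.37 with TSA alone (adjusted p = 0.379). In the combination 2 of 8 tested genes of this list rose, HMOX1 and HSPA1A (at least 14.5-fold), and 3 fell, HSPH1 (-1.96), DNAJB1 (-1.65) and HSPA1B (-1.28). HSPA1A and HSPA1B are near-identical copies, so their probes are uncertain.

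The glucocorticoid targets also split. In the combination 2 of 7 rose, ZBTB16 (at least 1.28-fold) and DUSP1 (1.24), and FKBP5, a standard marker of this hormone's action, fell (-1.04, adjusted p = 0.0357). TSC22D3 rose with TSA in siCONT (1.23) and was at 2.48 and 2.97 in the combination, within the range of the mock arrays. With UHRF1 depletion under mock PER1 fell (-2.02, adjusted p = 0.0149). With the siCONT arrays averaged, 0 of the 7 were called in these 3 comparisons. The counts of all these lists stand beside those of the metallothioneins as descriptions, and a difference between lists was not tested.

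The genes outside the family whose levels most resembled the mean of the 9 members measured on all arrays were sought among 15118 genes. BSG, a cell surface glycoprotein, had a Pearson r of 0.9975 over the 8 arrays, followed by CLMN (0.9946), GM2A, a lysosomal lipid-binding protein (0.994), LOC100507395 (0.9935) and LINC00239 (0.9922). In the combination the levels of BSG and CLMN stood 1.16 and 2.84 above siCONT with mock, which the choice by likeness fixes in direction. These are descriptions over 8 arrays in 4 groups that all genes share.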

How the data were processed

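RNA of 8 samples was hybridised to Agilent SurePrint G3 v2 arrays with 1 colour. The deposited files hold spot intensity on a linear scale, which the authors extracted with Agilent Feature Extraction 10.7.3.1 (local background subtracted, not scaled between arrays), and a series matrix of the same intensity per probe, used as an alternative. Spots flagged as outliers were left out and spots of a probe averaged. The log2 intensity minus the array's 75th percentile entered limma 3.58.1 (lmFit and eBayes, two-sided, R 4.3.3) as 4 group means over 8 arrays, with 4 residual degrees of freedom and a prior of 2.17. A probe was tested where 1 or more of the groups compared had it well above background on both arrays. This gave from 22391 (UHRF1 depletion under mock) to 23912 probes (TSA in depleted cells), and 24589 for the interaction. Benjamini-Hochberg adjustment ran within each comparison over the probes tested there. The script was tested on simulated data. A second fit averaged the siCONT arrays of an agent (6 samples, 2 residual degrees of freedom). The order of the siRNAs in unscaled intensity was examined after seeing the data. All members and all probes are named, up to 4 called genes per list and comparison by size, every measured relative, and the 5 most similar genes. Beside these, MTF1, SP1, USF2, NR3C1, NFE2L2 and BBS2 were named after their values were seen. Alternatives were other scalings, normexp background correction, the series matrix, filters on dim probes, a replicate block, each array left out, the mean of a gene's probes and the methods' t-test (unadjusted p under 0.05 and 2-fold). A gene with several probes was counted by the brightest. "At least N-fold" sets a bright group's mean against that of the dim group, each dim array entering at the probe's own signal or at its lowest signal well above background, whichever was higher. The members and lists were chosen with earlier results of these data known. Of 13 member probes, 13 matched the RefSeq table by accession.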

Additional observations from a re-analysis of the deposited data

Results flagged for a closer look

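A difference between the agents in the effect of UHRF1 depletion was called for MT1F and for 3 genes of the lists, by the interaction term of limma over all 24589 probes. MT1F had an interaction of 1.22, and of the alternatives run by probe it kept its call in 8 and lost it in 10. MT1G had a fitted value of 6.46, which rests on signal that was not well above background in 3 groups and on a filter passed only through the combination, so it carries no test. MT3 had 2.10, HMOX1 2.45 and ATP7A 1.08. In MT1F, MT3, HMOX1 and ATP7A, the depleted cells stood higher relative to siCONT under TSA than under mock, and none was called with the siCONT arrays averaged to 1 sample, where the adjusted p were 0.523, 0.308, 0.434 and 0.542 in that order.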

How the results depend on the processing

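The signal over background limits MT1G and the second MT1H probe, and 2 arrays per group limit every test. Counts here include MT1G, which could pass the filter on dim probes only through the combination. The count of members called stayed within 1.5 times for TSA against mock in depleted cells (10 to 10 of 10 without any one array), for the combination (10 to 10) and, apart from the averaged siCONT arrays (3), for TSA in siCONT (8 to 8). For UHRF1 depletion under mock it was 0 to 1 without any one array, the 1 being MT1M without siUHRF1-1 with mock. Under TSA it was 2 to 3 without any one array, MT1H being added without siUHRF1-2 with TSA. It was 3 with the mean of a gene's probes, which added MT1X. With only probes well above background on all arrays it was 1 (MT1F). With the siCONT arrays averaged it was 1 as well, but that was MT1G, whose direction of change the filter set in advance. For the interaction it was 1 to 2 without any one array, MT1F being lost without either array of either siCONT group or without siUHRF1-1 with TSA. It was 1 (MT1G) with median scaling and without a filter on dim probes, 1 (MT1F) over probes well above background everywhere, and 0 with the siCONT arrays averaged. In the depleted groups the replicate number names the siRNA, so it links mock and TSA there (correlation of deviations 0.337), while between the siCONT groups (0.074) and between siCONT and depleted cells (-0.056 and 0.023) it is a number only. With the numbers as a replicate block the interaction called 1 member, MT1G, and MT1F lost its call. With a replicate block within each siRNA arm the interaction called 0, while the blocks moved no other count of members. The block within an arm was run for the TSA effects and the interaction, and the methods' t-test for all but the interaction. That test called 0, 8, 10, 2 and 10 members for UHRF1 depletion under mock, TSA in siCONT, the combination, UHRF1 depletion under TSA and TSA in depleted cells, and 0, 8, 10, 0 and 0 after Benjamini-Hochberg adjustment. Median scaling moved the median of all probes by -0.40 in the combination, -0.35 for UHRF1 depletion under TSA, -0.39 for TSA in depleted cells and -0.34 for the interaction. For UHRF1 depletion under TSA the median change of the members was 0.38 with median scaling, in place of 0.74. With the other scalings, normexp correction and the series matrix it was 0.66 to 0.85.

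Values that turned sign were all small and not called, and the cause was not tested. For UHRF1 depletion under TSA, MT2A became -0.23 with median scaling and -0.0169 with quantile normalization. For the interaction, median scaling gave MT1B -0.12, MT1E -0.19 and -0.17 by its probes, MT1L -0.0718, MT1M -0.29 and MT1X -0.0206. Quantile normalization gave MT1B -0.0281, MT1E -0.11 and -0.064, and MT1M -0.06, and normexp correction gave MT1M -0.0369. Without one array the interaction ran from -0.19 to 0.50 and -0.18 to 0.54 for the MT1E probes, from -0.29 to 0.41 for MT1M, and from -0.20 to 0.0815 for MT2A.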
